A study of Mus musculus with 6 samples.

Results

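Osteoclast differentiation genes were examined in cultured mouse macrophages that had been given recombinant CCL3, a chemokine of inflamed tissue. They comprise 10 genes (Tnfrsf11a, Nfatc1, Oscar, Calcr, Dcstamp, Ocstamp, Atp6v0d2, Acp5, Ctsk and Mmp9), chosen by name and each found once among the 54532 genes of the deposited expression table. The cells were bone marrow-derived macrophages of C57BL/6J, an inbred mouse strain. The 3 CCL3 libraries came from cells cultured for 7 days and then kept with CCL3 for 3 days. The 3 control libraries came from macrophages cultured for 7 days, without CCL3. The sources used here do not give the handling of control cells over those 3 days, and do not settle whether CCL3 was added to the first culture too. If total culture time differed between the groups, its part cannot be told apart from that of CCL3. No treatment with RANKL, the cytokine that drives osteoclast formation, is named in the labels, and they do not say whether each library had its own animal or culture. The p-values therefore reflect the variation among these 6 libraries alone, and part of it may be technical.

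Osteoclasts are the multinucleated cells that resorb bone, and they form from the same marrow precursors as macrophages. The ligand RANKL binds the receptor RANK on the precursor, and with a calcium signal from adaptor-coupled receptors this raises the transcription factor NFATc1, which in turn raises fusion proteins, a proton pump subunit and the enzymes that digest bone matrix. Several of these products, among them tartrate-resistant acid phosphatase and cathepsin K, are also made by macrophages and giant cells outside bone.

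Of the 10 genes, 2 rose with CCL3, the tartrate-resistant acid phosphatase gene Acp5 and the proton pump subunit gene Atp6v0d2, by 3.83 and 4.57 times in mean FPKM. The receptor gene Tnfrsf11a and the regulator gene Nfatc1 were expressed in both groups and did not pass the test, nor did the collagen-degrading protease gene Ctsk. Mmp9, Ocstamp and Dcstamp lay below 1 FPKM on average, and Oscar and Calcr were at or near 0 in every library. Levels are in FPKM, which divides fragments by gene length and by a divisor for each library, and may therefore be compared between genes. This divisor lay below the recovered fragment total in every CCL3 library and above it in every control library. CCL3 levels are thus higher against control in FPKM than with plain fragment totals. With those totals the log2 fold changes of Acp5 and Atp6v0d2 were 1.48 and 1.78, against 1.81 and 2.09 in FPKM. A gene was tested in limma on log2(FPKM + 1) if its mean over the 6 libraries was at least 1 FPKM, with an adjusted p of 0.05 over all 9218 such genes as the threshold. Among all genes tested, 18.0% were called higher and 14.5% lower, 32.4% in all, and 5 of the 10 genes could be tested. Without regard to the test, CCL3 libraries lay above all control libraries for 24.6% of tested genes, and the groups were apart in either direction for 48.6%. Each of the 5 tested members exceeded 2 FPKM in every library, so none entered through 1 group alone.

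**Figure D1:**
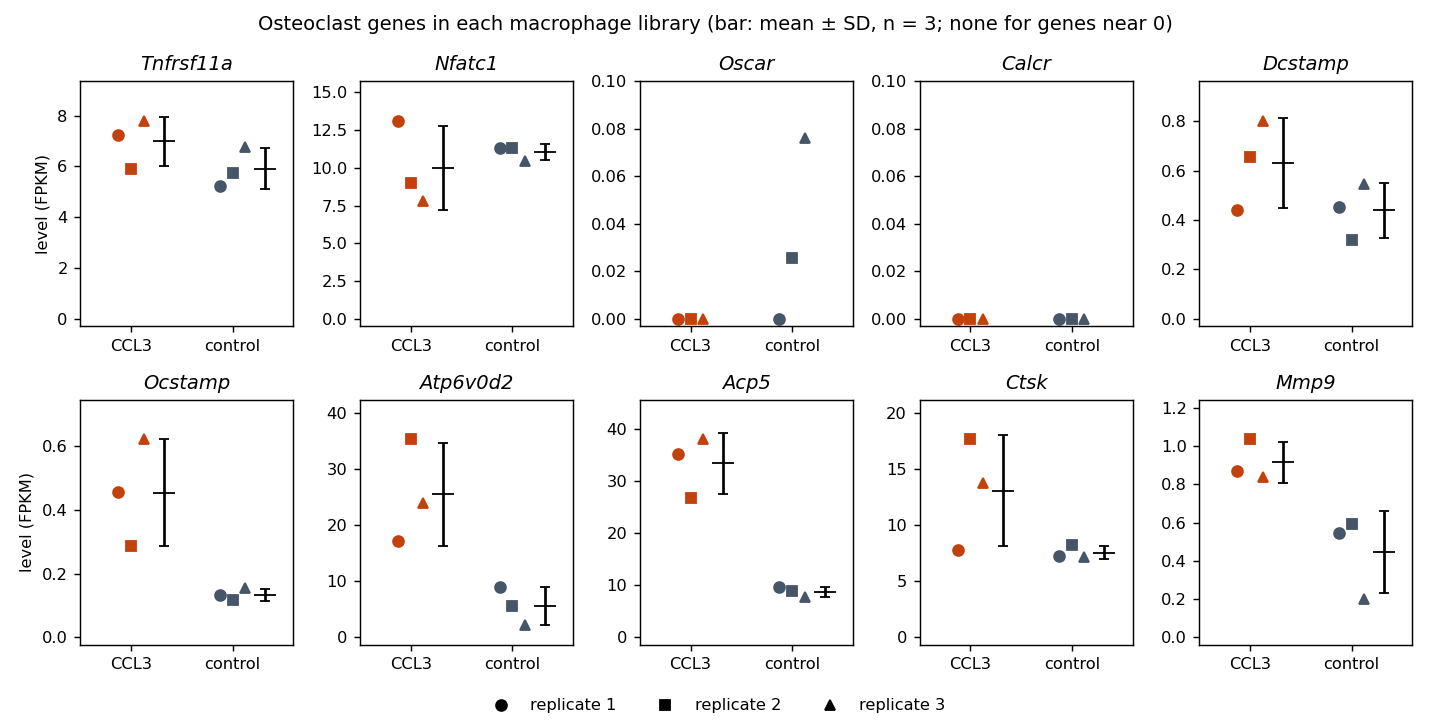
Level in FPKM (vertical axis, a scale of its own in each panel) of the 10 genes in the 3 CCL3 and 3 control libraries, with marker shapes for replicates and a bar for the mean ± SD, left out for Oscar and Calcr. The CCL3 libraries lie above all control libraries for Acp5, Atp6v0d2, Ocstamp and Mmp9, and the groups overlap for Tnfrsf11a, Nfatc1, Ctsk and Dcstamp.

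The sum of the 10 genes was 82.4, 96.7 and 93.6 FPKM in CCL3 replicates 1 to 3, against 43.6, 40.7 and 35.3 FPKM in control replicates 1 to 3. Acp5 and Atp6v0d2 together made up 63.6% to 66.2% of this sum with CCL3 and 28.2% to 42.7% of it in control. Without them the remaining 8 genes summed to 29.96, 34.6 and 31.6 FPKM with CCL3 and to 25.0, 26.4 and 25.4 FPKM in control. In these bulk libraries a larger share of expressing cells and more RNA per cell cannot be told apart.

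Tnfrsf11a encodes RANK, the receptor of RANKL (ENSMUSG00000026321; mm10 chromosome 1, 105780718 to 105847981). It had 7.23, 5.91 and 7.80 FPKM in CCL3 replicates 1 to 3 and 5.21, 5.76 and 6.78 FPKM in control replicates 1 to 3. The groups overlapped, and its log2 fold change of 0.21 ± 0.16 SE did not pass (limma adjusted p = 0.327). Its sign depended on scaling, with log2 fold changes of -0.28 in TPM and -0.10 with plain fragment totals. After removal of the trends on GC content and gene length the value was 0.54 and the adjusted p 0.04998, just past the threshold.

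Nfatc1 encodes the transcription factor regarded as the master regulator of osteoclast formation (ENSMUSG00000033016; chromosome 18, 80606205 to 80713071). Its level was 13.1, 9.01 and 7.80 FPKM with CCL3, against 11.3, 11.3 and 10.5 FPKM in control. CCL3 replicate 1 was the highest of all libraries and the other CCL3 libraries were the lowest, so the groups overlapped and the CCL3 group spread more widely (SD 2.79 against 0.509 FPKM). The log2 fold change was -0.16 ± 0.19 SE (limma adjusted p = 0.523). In TPM it was -0.69 with an adjusted p of 0.0369, on a scale that moves the median of all tested genes to -0.48.

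Calcr and Oscar, surface receptors of committed osteoclasts, were the lowest of the 10. Calcr, the calcitonin receptor gene (ENSMUSG00000023964; chromosome 6, 3685680 to 3764714), was listed at 0 in all 6 libraries. A count of 0 allows up to 3 fragments, which corresponds to at most 0.0446 to 0.0529 FPKM in a CCL3 library and 0.0359 to 0.0369 FPKM in a control library, for counting error only. Oscar, a receptor that signals through the adaptor FcRγ (ENSMUSG00000054594; chromosome 7, 3609813 to 3616157), had 0 fragments in every CCL3 library and 0, 1 and 3 fragments in control replicates 1 to 3. At this depth no difference in either gene could be shown.

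Dcstamp and Ocstamp encode membrane proteins needed for fusion of precursors into multinucleated cells. Dcstamp (ENSMUSG00000022303; chromosome 15, 39745930 to 39760938) had 0.440, 0.656 and 0.802 FPKM with CCL3, against 0.452, 0.321 and 0.545 FPKM in control, from 19 to 31 fragments per CCL3 library and 18 to 31 per control library. These groups overlapped. Ocstamp (ENSMUSG00000027670; chromosome 2, 165393760 to 165400405) had 0.455, 0.287 and 0.622 FPKM with CCL3, against 0.132, 0.117 and 0.154 FPKM in control. All CCL3 libraries of Ocstamp lay above all control libraries, as was the case for 10.7% of the 4589 genes with a mean of 0.1 to 1 FPKM. The ratio of its means was 3.39, resting on 27, 18 and 33 fragments with CCL3 and 10, 9 and 12 fragments in control. When genes of any level were tested, the adjusted p of Ocstamp was 0.0628 and that of Dcstamp 0.404 (limma, 20404 genes, of which 9.84% were called, 5.45% higher and 4.39% lower), and 3 libraries against 3 cannot give an exact permutation p below 0.1.

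Atp6v0d2 encodes the d2 subunit of the membrane sector of the vacuolar proton pump, which acidifies the space under a resorbing osteoclast and also serves in fusion (ENSMUSG00000028238; chromosome 4, 19876841 to 19922605). It had 17.1, 35.3 and 23.9 FPKM in CCL3 replicates 1 to 3 and 8.95, 5.49 and 2.27 FPKM in control replicates 1 to 3. Every CCL3 library exceeded every control library, and control libraries spread widely among themselves. The mean was 25.4 ± 9.16 FPKM with CCL3 and 5.57 ± 3.34 FPKM in control (SD, n = 3 per group). The change of 2.09 ± 0.40 SE on the log2 scale (limma adjusted p = 0.00830) was the 7th highest of the 9218 tested genes, and the gene moved to above 77.7% of tested genes in level with CCL3, against 44.2% in control. In total 3342 fragments supported it with CCL3 and 951 in control.

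The ubiquitous paralogue Atp6v0d1, which occupies the same place in the pump of most cells, was the more abundant form in every library. It had 190 ± 8.04 FPKM with CCL3 and 150 ± 10.2 FPKM in control and missed the threshold (log2 fold change 0.33 ± 0.13 SE, limma adjusted p = 0.0760). Atp6v0d2 accounted for 8.57%, 15.8% and 10.8% of the summed d subunit level with CCL3, against 5.53%, 3.79% and 1.41% in control. The lowest CCL3 share thus lay above the highest control share.

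Acp5 encodes tartrate-resistant acid phosphatase, the enzyme by which osteoclasts are stained (ENSMUSG00000001348; chromosome 9, 22126727 to 22135711). It had 35.3, 26.8 and 38.1 FPKM in CCL3 libraries, against 9.65, 8.82 and 7.68 FPKM in control libraries. The groups were far apart, with the lowest CCL3 library above the highest control library, and control libraries were close together. Means were 33.4 ± 5.84 FPKM with CCL3 and 8.72 ± 0.989 FPKM in control (SD, n = 3 per group), and the log2 fold change was 1.81 ± 0.17 SE (limma adjusted p = 0.00310). It ranked 31st from the highest of all tested fold changes and was the most abundant of the 10 genes with CCL3, whereas Nfatc1 was the most abundant in control. An antisense gene that overlaps Acp5, 6530413G14Rik, was listed at 0 in all libraries. If strand was not used in counting, reads of the pair cannot be told apart.

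Acp5 and Atp6v0d2 passed the test under each of the 21 alternative settings, each left-out library and each scaling included. In TPM, where 48.7% of tested genes were called, 5.50% higher and 43.2% lower, they were the 2 members that rose, and Nfatc1 fell. With plain fragment totals, where 41.8% were called, 8.71% higher and 33.1% lower, 2 members rose. After removal of the GC trend 25.7% of genes were called, 12.5% higher and 13.1% lower, and Ctsk joined them. With the length trend removed as well, 26.2% of genes were called, 12.9% higher and 13.3% lower, and Tnfrsf11a was a further member called. The log2 fold changes of Acp5 and Atp6v0d2 came to 1.36 and 1.71 in TPM, the lowest for Acp5, and that of Atp6v0d2 was 1.53 with a pseudocount of 5, its lowest value, which damps low levels.

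**Figure D2:**
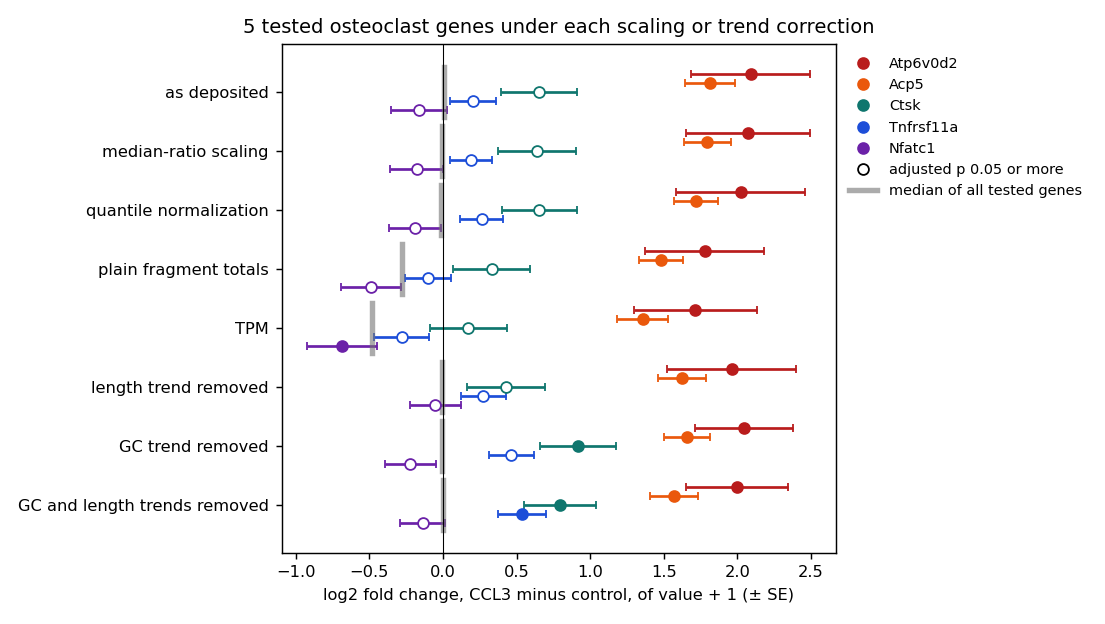
Log2 fold change, CCL3 minus control, of value + 1 (horizontal axis, ± SE) of the 5 tested genes under each scaling or trend correction, with filled points for an adjusted p under 0.05 and a grey bar at the median of all tested genes. Atp6v0d2 and Acp5 stay filled and right of the grey bar in each row, while Tnfrsf11a lies left of 0 with plain fragment totals and TPM.

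Ctsk encodes cathepsin K, the cysteine protease that digests bone collagen (ENSMUSG00000028111; chromosome 3, 95499256 to 95509362). Its level was 7.83, 17.7 and 13.7 FPKM with CCL3, against 7.29, 8.23 and 7.15 FPKM in control. CCL3 replicate 1 lay within the control range, while CCL3 replicates 2 and 3 lay above it. The log2 fold change of 0.65 ± 0.26 SE did not pass (limma adjusted p = 0.0831). Without CCL3 replicate 1 it was 0.96 with an adjusted p of 0.0118, and after removal of the GC trend it was 0.92 with an adjusted p of 0.0376. Other settings lowered it, to 0.17 in TPM (adjusted p = 0.606), 0.33 with plain fragment totals (adjusted p = 0.333), and 0.43 with the length trend alone removed (adjusted p = 0.238). Leaving out CCL3 replicate 2 instead gave 0.42, which did not pass (adjusted p = 0.204).

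Mmp9 encodes gelatinase B, a secreted protease of osteoclasts and neutrophils (ENSMUSG00000017737; chromosome 2, 164940780 to 164955850). It had 0.871, 1.04 and 0.838 FPKM with CCL3, against 0.544, 0.591 and 0.198 FPKM in control, from 43 to 63 and 15 to 44 fragments per library. The CCL3 libraries lay above the control libraries, as for 10.7% of genes with a mean of 0.1 to 1 FPKM. The adjusted p with genes of any level included was 0.119 (limma). Mmp9 and Ocstamp were the only pair of the 10 genes on 1 chromosome, 437910 bases apart. Neutrophil markers, which bear on Mmp9, summed to 61.2 to 72.7 FPKM with CCL3 and 32.5 to 67.2 FPKM in control; of 5 tested 1 rose, S100a8, and 1 fell, Mmp8, and Ly6g was at 0 throughout. Of all tested genes 18.0% rose and 14.5% fell. The part of neutrophils in the Mmp9 values was not tested.

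The promoters of Acp5 and Ctsk are shown because these genes are textbook targets of NFATc1, PU.1 and MITF, and that of Oscar because it is a textbook target that stayed near 0. Sequences are from RefSeq (GRCm38.p6, the build mm10), as given in a promoter table in which 5 of the 10 genes were matched. The 250 bases before each start were searched on both strands for GGAAA (the NFAT core), TGANTCA (AP-1), GAGGAA (the PU.1 core) and TCATGTG or TCACGTG (the MITF box). Capitals mark matches, which may overlap between motifs, and stretches within an annotated exon are left out. The window of the third Acp5 start site at chr9:22130609-22130848 on the minus strand, whose right-hand end faces the start, is shown with the Ctsk window at chr3:95498960-95499209 on the plus strand and the Oscar window at chr7:3616158-3616407 on the minus strand.
Acp5: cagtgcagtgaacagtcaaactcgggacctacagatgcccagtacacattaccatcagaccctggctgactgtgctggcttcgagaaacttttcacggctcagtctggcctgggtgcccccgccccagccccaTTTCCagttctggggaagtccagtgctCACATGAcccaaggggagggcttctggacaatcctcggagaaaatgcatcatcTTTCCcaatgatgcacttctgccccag
Ctsk: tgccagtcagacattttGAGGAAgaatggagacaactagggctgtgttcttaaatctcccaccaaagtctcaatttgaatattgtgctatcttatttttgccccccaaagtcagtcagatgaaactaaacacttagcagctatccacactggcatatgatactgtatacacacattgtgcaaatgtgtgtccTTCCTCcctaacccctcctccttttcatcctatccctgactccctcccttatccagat
Oscar: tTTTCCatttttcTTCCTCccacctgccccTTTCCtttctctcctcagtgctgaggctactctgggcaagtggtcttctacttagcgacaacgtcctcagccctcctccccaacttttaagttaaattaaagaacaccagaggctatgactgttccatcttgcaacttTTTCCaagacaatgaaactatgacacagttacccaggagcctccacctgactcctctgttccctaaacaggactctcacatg
The Acp5 window held 2 NFAT cores and a MITF box (CACATGA on the strand shown, bases -90 to -84 from the start), the Ctsk window 2 PU.1 cores, and the Oscar window 3 NFAT cores and 1 PU.1 core. Of the 3 start sites of Acp5, the one shown had the most matches. Each of the other start sites of Acp5 had 1 NFAT core, and the Tnfrsf11a window had 0 matches. Of the 2 start sites of Calcr, the first had 1 NFAT core and the second 0 matches. The first bases after the Ctsk start used here were found in no annotated transcript of Ctsk, unlike those of the Acp5 and Oscar windows shown. Over 32851 promoter windows of the same length 55.6% held the NFAT core, 6.75% AP-1, 23.3% the PU.1 core and 6.28% the MITF box. These shares are per window, not per gene with several windows. A match is a description of these letters and not evidence of binding.

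Among ligands and receptors around RANK and the macrophage growth factor receptor, 5 of 10 listed genes could be tested, with 0 risen and 0 fallen and a median log2 fold change of 0.13, against 0.0066 over all tested genes; at an unadjusted p under 0.05 the count was 1, Ifngr1, named after its values were seen, and 1 gene was called lower in TPM and with quantile normalization. In several settings 1 gene was called higher, not the same gene in each. These were removal of the GC trend with or without the length trend, array weights, a replicate block and no filter. Leaving out CCL3 replicate 3, or both libraries numbered 3, also gave 1 gene called higher. Over all tested genes 18.0% were called higher and 14.5% lower, and in TPM 5.50% and 43.2%. With quantile normalization 1289 of 9218 genes were called lower. The shares called higher were 12.5% after removal of the GC trend, 12.9% with the length trend removed as well, and 5.45% with no filter. Tnfsf11, which encodes RANKL, was listed at 0 in all 6 libraries, and Tnfrsf11b, the gene of its decoy receptor, had 0 fragments in each CCL3 library and 2, 0 and 3 fragments in control replicates 1 to 3. The receptor gene Csf1r, which macrophages and osteoclast precursors share, had 711 ± 157 FPKM with CCL3 and 809 ± 133 FPKM in control (log2 fold change -0.20 ± 0.21 SE, limma adjusted p = 0.482), and was called lower in TPM (-0.73, adjusted p = 0.0263) and with quantile normalization (-0.87, adjusted p = 0.0415). Tnfrsf1a, a receptor of TNF, which aids osteoclast formation, had 119 ± 16.4 FPKM with CCL3 and 95.8 ± 7.20 FPKM in control (limma adjusted p = 0.141) and passed with array weights (adjusted p = 0.0425). Il34, which encodes a further ligand of the Csf1r product, singled out after its values were seen, had 11, 13 and 6 fragments with CCL3 and 3, 2 and 2 fragments in control. It lay below the filter, and passed when genes of any level were tested (limma adjusted p = 0.0294).

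Genes that relay the RANK signal moved in both directions. Of 21 tested members 5 rose and 4 fell, with a median log2 fold change of -0.20, and with TPM 1 rose and 12 fell. Among all tested genes 18.0% rose and 14.5% fell, and with TPM 5.50% rose and 43.2% fell. The largest rise was that of Mapk3, which encodes the kinase ERK1, at 487 ± 40.6 FPKM with CCL3 and 203 ± 19.9 FPKM in control (log2 fold change 1.26 ± 0.14 SE, limma adjusted p = 0.00314). Relb, a subunit of the alternative NF-κB pathway that RANK engages, rose by 0.87 ± 0.17 SE and the survival kinase gene Akt1 by 0.79 ± 0.17 SE. Traf3, whose product holds that alternative pathway back, fell to 2.33 ± 0.395 FPKM with CCL3, against 4.70 ± 0.788 FPKM in control. Traf6, the adaptor that binds RANK directly, had 1.24, 1.91 and 0.936 FPKM with CCL3, against 2.33, 2.15 and 2.09 FPKM in control. All CCL3 libraries lay below all control libraries, but the difference did not pass (limma adjusted p = 0.0805). It passed in TPM (log2 fold change -1.002, adjusted p = 0.0110), with plain fragment totals (-0.67, adjusted p = 0.0227) and with array weights (adjusted p = 0.0371). Leaving out CCL3 replicate 2 gave -0.61, which also passed (adjusted p = 0.0281). The calls of Relb and Akt1 ended in TPM and after removal of the GC trend (limma adjusted p = 0.130 and 0.254 for Relb, 0.158 and 0.118 for Akt1), and those of Akt1 and Traf3 without control replicate 2.

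The adaptor genes that give osteoclast precursors their calcium signal rose, and genes of calcineurin, the phosphatase that this signal activates, fell. Tyrobp, which encodes the adaptor DAP12, had 3021 ± 81.6 FPKM with CCL3 and 1524 ± 96.9 FPKM in control (log2 fold change 0.99 ± 0.14 SE, limma adjusted p = 0.00356). Trem2, a receptor coupled to DAP12, rose by 0.98 ± 0.13 SE, and Fcer1g, which encodes FcRγ, the partner of OSCAR, by 0.72 ± 0.21 SE. Ppp3cb, a catalytic subunit of calcineurin, which in turn activates NFAT proteins, fell to 1.68 ± 0.485 FPKM with CCL3, against 3.21 ± 0.451 FPKM in control. Among 13 tested genes of this list 4 rose and 3 fell, with a median log2 fold change of -0.12. The 3 that fell were Ppp3ca, Ppp3cb and Ppp3r1, all calcineurin subunits, a grouping made after the values were seen. No gene of the list was called lower with no filter, where 4.39% of all genes were. The same held without CCL3 replicate 1, CCL3 replicate 3, control replicate 1 or control replicate 2. Leaving out both libraries numbered 3 gave 1 gene called lower. With TPM 2 genes of the list rose and 8 fell. The shares over all tested genes were 18.0% risen and 14.5% fallen, and 5.50% and 43.2% in TPM. The call of Fcer1g was lost in 13 of 21 settings and that of Ppp3cb in 5 of 20, and those of Tyrobp and Trem2 were lost with quantile normalization.

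**Figure D3:**
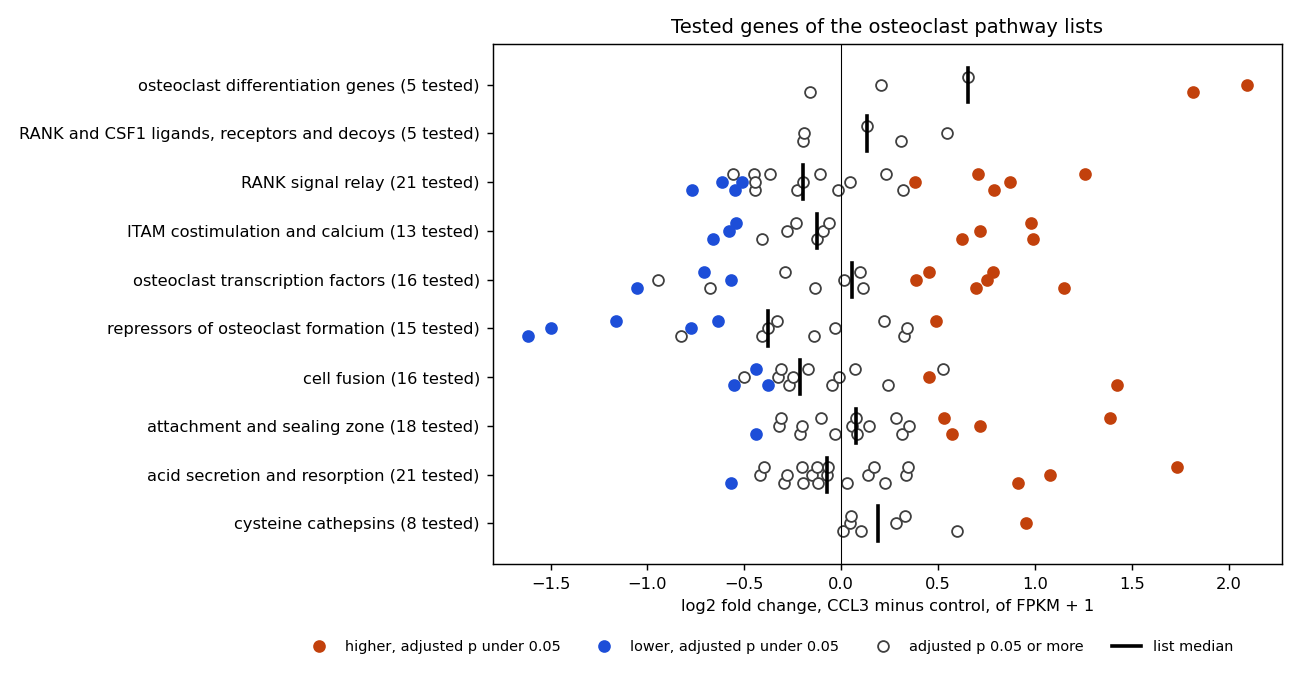
Log2 fold change, CCL3 minus control, of FPKM + 1 (horizontal axis) for each tested gene of the osteoclast differentiation genes and 9 further lists, with red for called higher, blue for called lower, open for not called, and a black bar for the list's median. Acp5 and Atp6v0d2 lie furthest right of all points, and the repressor list has 5 blue points and 1 red.

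Transcription factors of the osteoclast lineage were split. Fos, the AP-1 gene without which mice form no osteoclasts, fell to 21.6, 17.2 and 13.7 FPKM with CCL3, against 44.2, 36.9 and 30.6 FPKM in control (log2 fold change -1.05 ± 0.20 SE, limma adjusted p = 0.00801). Spi1, which encodes the lineage factor PU.1, had 421 ± 18.1 FPKM with CCL3 and 260 ± 18.3 FPKM in control and rose by 0.70 ± 0.13 SE (limma adjusted p = 0.00739). Cebpa rose by 1.15 ± 0.21 SE, the nuclear receptor gene Esrra by 0.75 ± 0.13 SE and the AP-1 gene Jund by 0.78 ± 0.16 SE. Mitf, whose product acts on the Acp5 and Ctsk promoters, had 1.76 ± 0.609 FPKM with CCL3 and 2.03 ± 0.590 FPKM in control and did not pass (limma adjusted p = 0.642). Counts were 6 risen and 3 fallen of 16 tested, median log2 fold change 0.056, and in TPM 1 and 6. All tested genes gave 18.0% risen and 14.5% fallen, and in TPM 5.50% and 43.2%. The rises of Cebpa, Esrra and Jund did not pass after removal of the GC trend, where the log2 fold change of Jund was -0.016. Those of Esrra and Jund also ended in TPM (limma adjusted p = 0.193 and 0.172), and those of Cebpa and Jund with quantile normalization (limma adjusted p = 0.0537 and 0.0546). Jund was lost without control replicate 2 too (limma adjusted p = 0.0530). The rise of Spi1 did not pass in TPM, with plain fragment totals or with quantile normalization. The fall of Fos passed in all 21 settings.

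Among genes whose products restrain osteoclast formation, 5 of 15 tested fell and 1 rose, with a median log2 fold change of -0.38, against 0.0066 over all tested genes. Over all tested genes 14.5% fell and 18.0% rose, and in TPM 43.2% fell and 5.50% rose. Id2, an inhibitor of helix-loop-helix factors, had 17.2, 17.4 and 16.5 FPKM with CCL3, against 69.7, 55.0 and 41.4 FPKM in control (log2 fold change -1.61 ± 0.19 SE, limma adjusted p = 0.00314). Lilrb4a, an inhibitory receptor gene from a family with similar members, fell by 1.50 ± 0.25 SE on the log2 scale to 0.300 ± 0.117 FPKM with CCL3, against 2.81 ± 1.22 FPKM in control. Lilrb4a reached the filter through control alone, so it entered the test as a gene higher in control. With genes of any level tested 4 of 17 repressors fell and 0 rose, against 4.39% fallen and 5.45% risen of all genes tested in this way. The phosphatase gene Dusp1 fell by 1.16 ± 0.20 SE and the zinc finger gene Ikzf1 by 0.78 ± 0.16 SE on the same scale, with the call of Ikzf1 lost without control replicate 2. The established repressor gene Irf8 did not pass the test, and its direction depended on the setting, with a log2 fold change of -0.19 in TPM and a rise of 0.44 after removal of the gene length trend (limma adjusted p = 0.0260). It had 52.9 ± 4.91 FPKM with CCL3 and 41.6 ± 4.14 FPKM in control (log2 fold change 0.34 ± 0.14 SE, limma adjusted p = 0.0930). In TPM 0 rose and 11 fell, and the falls of Id2, Lilrb4a and Dusp1 passed in every setting where they could be tested.

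Further genes of cell fusion gave 2 rises and 3 falls among 16 tested, with a median log2 fold change of -0.21, and 1 and 11 in TPM. Rises and falls over all tested genes were 18.0% and 14.5%, and 5.50% and 43.2% in TPM. The tetraspanin gene Tspan10 had 5.44, 3.07 and 4.44 FPKM with CCL3, against 1.39, 1.19 and 0.416 FPKM in control (log2 fold change 1.42 ± 0.25 SE, limma adjusted p = 0.00597), and kept this call in each of 20 settings. Its control mean of 0.997 ± 0.513 FPKM was just under the filter, which it passed through the CCL3 libraries. Anxa5 rose by 0.45 ± 0.14 SE, while Cd47, which signals to the fusion receptor SIRPα, fell by 0.56 ± 0.18 SE and the podosome scaffold gene Sh3pxd2a by 0.44 ± 0.14 SE on the log2 scale. These smaller changes were each lost in 9 or 11 settings, and Anxa5 had a log2 fold change of -0.082 in TPM.

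For attachment to the surface, 4 of 18 tested genes rose and 1 fell, with a median log2 fold change of 0.079, and 1 and 7 in TPM. Shares over all tested genes were 18.0% risen and 14.5% fallen, and in TPM 5.50% and 43.2%. Src, the kinase that osteoclasts need for their ruffled border, had 5.71, 4.26 and 4.59 FPKM with CCL3, against 1.39, 1.13 and 1.18 FPKM in control (log2 fold change 1.39 ± 0.15 SE, limma adjusted p = 0.00310), with no overlap and with the call kept in 20 settings. Itgb3 and Itgav encode the integrin by which osteoclasts attach. Itgb3 had 5.71 ± 0.753 FPKM with CCL3 and 7.68 ± 3.43 FPKM in control (limma adjusted p = 0.370), with a fall in TPM (log2 fold change -0.83, adjusted p = 0.0296). Itgav had 6.53 ± 1.28 FPKM with CCL3 and 6.19 ± 0.939 FPKM in control (limma adjusted p = 0.817). Rac2, the integrin activator gene Fermt3 and the actin severing gene Gsn rose by 0.71 ± 0.15 SE, 0.57 ± 0.13 SE and 0.53 ± 0.17 SE, calls that ended in TPM, with plain fragment totals, with quantile normalization and after removal of the GC trend; Gsn had a log2 fold change of -0.0059 in TPM and -0.063 with quantile normalization.

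In the list of acid secretion and resorption 3 of 21 tested genes rose and 1 fell, with a median log2 fold change of -0.073, and 3 and 12 in TPM. Of all genes tested 18.0% rose and 14.5% fell, and in TPM 5.50% and 43.2%. Mmp14, a membrane-bound collagenase, had 15.1, 16.1 and 12.8 FPKM with CCL3, against 6.98, 3.68 and 1.78 FPKM in control (log2 fold change 1.73 ± 0.34 SE, limma adjusted p = 0.00861). Like Atp6v0d2 it was lowest in control replicate 3 and highest of the controls in control replicate 1. The proteolipid ring genes of the pump, Atp6v0b and Atp6v0c, rose by 1.08 ± 0.17 SE and 0.91 ± 0.14 SE, and both kept their calls in all 21 settings. Atp6v0a2 fell to 4.87 ± 0.485 FPKM with CCL3, against 7.69 ± 0.242 FPKM in control, a call lost without control replicate 1 or 2 and after removal of the GC trend. Tcirg1, which encodes the a3 subunit that osteoclasts use, had 209 ± 24.1 FPKM with CCL3 and 185 ± 12.6 FPKM in control (limma adjusted p = 0.373). The chloride channel gene Clcn7 had 49.8 ± 6.39 FPKM with CCL3 and 45.1 ± 5.34 FPKM in control (limma adjusted p = 0.505). Car2, the carbonic anhydrase gene that supplies protons in osteoclasts, had 10, 7 and 0 fragments with CCL3 and 1, 0 and 0 fragments in control. Of the other cysteine cathepsins 1 of 8 tested rose, Ctsl, by 0.95 ± 0.17 SE, a call that ended in TPM.

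**Figure D4:**
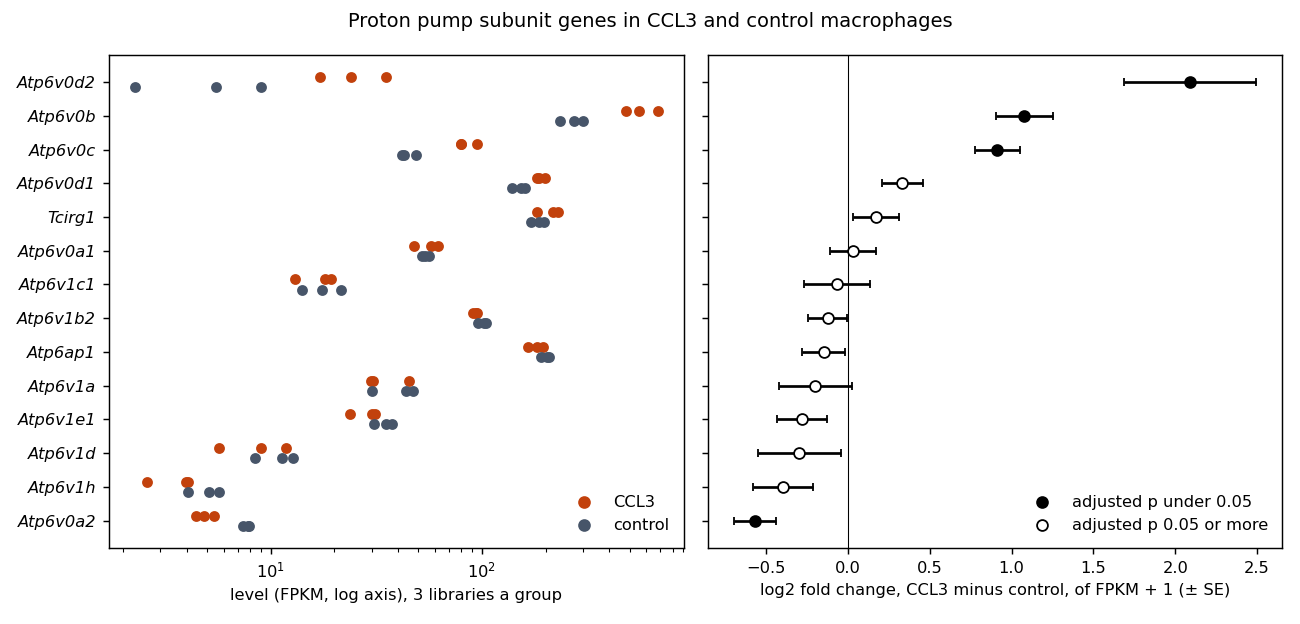
Proton pump subunit genes, with the level in FPKM on a log axis in 3 CCL3 and 3 control libraries (left) and the log2 fold change, CCL3 minus control, of FPKM + 1 ± SE (right; filled for an adjusted p under 0.05). Atp6v0d2 has the highest fold change and lies below Atp6v0d1 in level in every library; Atp6v0b, Atp6v0c and Atp6v0d2 were called higher and Atp6v0a2 lower.

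Markers of other cell types moved with these genes in part. For comparison, 18.0% of all tested genes rose and 14.5% fell, with 5.50% and 43.2% in TPM and 8.71% and 33.1% with plain fragment totals. With no filter 5.45% rose and 4.39% fell, and after removal of the GC trend 12.5% and 13.1%. Quantile normalization called 1366 of 9218 genes higher and 1289 lower. Osteoblast and stromal markers, from cells that make RANKL in bone, summed to 6.37 to 10.4 FPKM with CCL3 and 3.38 to 6.17 FPKM in control; of 12 genes 2 could be tested and both rose, Col1a1 to 3.96 ± 1.18 FPKM with CCL3, against 1.80 ± 0.675 FPKM in control, and Col1a2, while Ibsp and Lum were at 0. Neither collagen gene passed in TPM, with plain fragment totals, with no filter, or without CCL3 replicate 1, CCL3 replicate 3, control replicate 2 or control replicate 3. Dendritic cell markers summed to 7.92 to 9.74 FPKM with CCL3 and 3.30 to 4.62 FPKM in control, and of 8 genes 3 could be tested and rose. Only 2 could be tested when any 1 CCL3 library was left out, against 3 when any 1 control library was left out. The count of 3 thus rests in part on the CCL3 libraries lifting a gene over the filter. With no filter 2 of the 8 rose and their median log2 fold change was -0.024, and after removal of the GC trend 1 of 3 rose. Markers of giant cells and lipid-laden macrophages summed to 9909.8 to 11619 FPKM with CCL3 and 7568 to 8393 FPKM in control. Of 7 tested 3 rose, against 1 risen and 1 fallen in TPM, and Gpnmb, an abundant lysosomal glycoprotein gene, had 4050.0 ± 530.0 FPKM with CCL3 and 3343 ± 849.9 FPKM in control and did not pass (limma adjusted p = 0.313). Of 8 macrophage markers 1 rose, Cd68, and 2 fell, Cd14 and Lyz2, against 0 risen and 5 fallen in TPM and 0 and 3 with plain fragment totals or quantile normalization, and their sum was 10809 to 15285 FPKM with CCL3 and 16815 to 28674 FPKM in control. The part of these cells in the values of Acp5 and Atp6v0d2 was not tested.

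Over 6 libraries and 8465 tested protein-coding genes, the genes with a pattern most like that of each member were found by Pearson's r of log2(FPKM + 1). They were Cracr2b, Agtrap and Slc7a7 for Acp5 (r from 0.997 to 0.998) and Cyp4f18, Saa3 and Phldb3 for Atp6v0d2 (0.990 to 0.993). For Ctsk they were Ssr3, Dnm1l and Pttg1 (0.992 to 0.999), for Nfatc1 Ncstn, Sephs2 and Vps26b (0.986 to 0.990), and for Tnfrsf11a Zfyve21, Carm1 and Cbx6 (0.994 to 0.996). The 5 tested genes thus shared none of these neighbours. With 6 libraries in 2 groups and so many genes, values this high are a description only.

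The libraries held 17399194 to 18058494 fragments with CCL3 and 17913283 to 18609737 in control, and genes above 0 numbered 15035 to 15451 with CCL3 and 16394 to 16802 in control. The first principal component of the tested genes held 65.6% of the variance and parted the groups, with control replicate 3 nearest to the CCL3 libraries. Without control replicate 3 the log2 fold changes of Acp5 and Atp6v0d2 were 1.73 and 1.66 (limma adjusted p = 0.00386 and 0.00709).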

How the data were processed

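RNA was purified on Qiagen columns and libraries were made with a SMARTer kit, per the labels' protocols. Reads were placed on mm10, per the submitters' processing notes. The authors deposited FPKM values per gene for 6 libraries. The sources used here name no handling of strand or of reads that match several places. Every value corresponded to a whole number of fragments within 0.02, so fragments per library were recovered from the FPKM steps. These totals were 1.05 to 1.20 times the divisor behind FPKM with CCL3 and 0.851 to 0.895 times it in control, so TPM and plain fragment totals were used as alternative scalings.

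Groups were compared with limma 3.58.1 in R 4.3.3 on log2(FPKM + 1), for genes that averaged 1 FPKM or more, with a variance trend and Benjamini-Hochberg adjustment over all tested genes. Fold changes on this scale understate changes of low genes. The code was tested on simulated data. Intervals and floors cover counting error only. The members and gene lists were chosen with earlier results of these data known. All 10 members are named, and from each further list up to 4 genes past the threshold by size of log2 fold change (where none passed, the 2 with the highest mean FPKM), beside a fixed set of 19 genes of the pathway named whatever their values, 1 of which is not reported here. The removal of the GC trend, of GC and length trends together, and of both libraries numbered 3 were chosen after seeing the data.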

Additional observations from a re-analysis of the deposited data

How the results depend on the processing

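Depth limits Oscar, Calcr, Dcstamp, Ocstamp and Mmp9, and with 3 libraries a group single calls rest on few values. Of the 32 called genes that the naming rule picks, which leaves out marker genes, Ppp3ca and Ppp3r1, 12 kept the call under every alternative in which they were tested, Acp5 and Atp6v0d2 among them. Against 2990 genes called, 4493 were called in TPM and 4530 with array weights, and 1128 to 3142 when 1 library was left out, the lowest without control replicate 2 (1643 without control replicate 1, 1921 without CCL3 replicate 3). Of the osteoclast differentiation genes 2 were called, 2 to 3 when 1 library was left out and 4 after removal of GC and length trends. With a replicate block 3897 genes and 3 members were called, Ctsk among them (limma adjusted p = 0.0424), and Irf8 was called higher (limma adjusted p = 0.0428). Deviations of same-numbered libraries from their group means correlated at -0.063, 0.387 and 0.503, and those of differently numbered libraries at -0.541 to 0.413. Deviations within so small a group depend on each other, so these values cannot tell whether the numbers pair the samples. Without both libraries numbered 3, 2647 genes were called.

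The sign of the log2 fold change turned for some named genes, in no case with an adjusted p under 0.05; the cause was not tested. In TPM the values were -0.28 for Tnfrsf11a, -0.23 for Tnfrsf1a, -0.082 for Anxa5, -0.0059 for Gsn, -0.19 for Irf8, -0.44 for Itgav, -0.36 for Tcirg1, -0.39 for Clcn7 and -0.24 for Gpnmb. With plain fragment totals they were -0.10 for Tnfrsf11a, -0.045 for Tnfrsf1a, -0.0094 for Irf8, -0.25 for Itgav, -0.18 for Tcirg1, -0.21 for Clcn7 and -0.057 for Gpnmb. Quantile normalization gave -0.10 for Tnfrsf1a, -0.20 for Anxa5, -0.063 for Gsn, -0.25 for Tcirg1, -0.15 for Clcn7 and -0.45 for Gpnmb. Removal of the GC trend gave -0.068 for Tnfrsf1a, -0.016 for Jund, 0.13 for Mitf, -0.092 for Irf8 and -0.26 for Tcirg1, and that of GC and length trends -0.12, -0.13, 0.20, -0.0091 and -0.21 for the same genes. Itgav had -0.046 without CCL3 replicate 3, -0.02 without control replicate 3 and -0.12 without both.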
